A study of Mus musculus with 6 samples.

Results

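The genes described here encode the proteasome, the protease that degrades ubiquitin-tagged proteins, together with its activators and its assembly chaperones. Probes were taken where the gene symbol was Psma, Psmb, Psmc, Psmd, Psme, Psmf or Psmg followed by a digit, and where the detection p was 0.05 or less on at least 1 array. This gave 70 probes for 43 genes, out of 20308 probes for 10585 named genes tested and 45281 probes on the array. The rule used symbols and detection and no difference between groups. It also took Psmc3ip (1 probe) and Psme3ip1 (2 probes), which encode proteins that bind a subunit or an activator and are no part of the particle, and 67 probes for 41 genes remained without them. Named probes for Psma1, Psma3, Psma6, Psmb11, Psmd3, Psme2b, Psmf1 and Psmg4 were not among those tested, and these 8 genes were not analysed here.

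RNA came from 3T3-CrT cells, mouse Tet-Off fibroblasts that stably carry a rabbit creatine transporter (CrT) cDNA with a hemagglutinin tag at its carboxyl end, and cells of both groups carry it. Each group had 3 samples, and each sample was hybridised to 1 Illumina Mouse WG-6 v2 array. The treated group received 5 mM creatine monohydrate (Cr) for 3 h and the untreated controls none, with cells at 70% confluency in 6-well plates. All samples come from 1 transfected line, so the p-values measure only the spread between these samples. Whether the replicates were wells of 1 culture or separate cultures is not known here. Array signals are in arbitrary units, and the normalized values are on a generalized log2 scale, which equals log2 for bright probes. A difference is the Cr mean minus the untreated mean on that scale.

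In the eukaryotic cell the proteasome consists of a barrel, the 20S core, and caps that feed it. Rings of alpha subunits (Psma genes) gate the barrel, and rings of beta subunits (Psmb genes) carry the proteolytic sites inside. The 19S cap unfolds substrates with a ring of ATPases (Psmc genes) and recognises and deubiquitinates them with non-ATPase subunits (Psmd genes). The Psme genes encode other activators, and the Psmg genes with Psmd5, Psmd9 and Psmd10 encode chaperones that help to assemble the particle. When proteasome activity is short, cells are known to raise many of these genes together through the transcription factor Nrf1 (gene Nfe2l1), which binds antioxidant response elements, whereas interferon raises the inducible subunits through other elements.

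Promoter sequence was matched to the members to show where these elements lie. RefSeq windows of 300 bases on GRCm38.p6, from 250 bases before to 50 after the annotated start, were found for 36 of the 43 genes, 39 windows in all, of which 36 windows belong to 34 subunit, activator or chaperone genes. The core of the antioxidant response element, TGACNNNGC on either strand, stood in 6 of those 36 windows (16.7%) and in 12.4% of 32851 windows of all genes. They were the windows of Psmb5, Psmb6, Psmc6, Psmd9, Psmd12 and Psme4. The core of the interferon-stimulated response element, searched as GAAA, any 2 bases and again GAAA, stood in 4 windows (11.1%, against 3.44% of all) of Psmb3, Psmd4, Psmd9 and Psme1. TTCNNNGAA, the core of the gamma-activated site, stood in 3 windows (8.33%, against 8.30%) of Psmb8, Psmd2 and Psmg1. CCAAT stood in 10 windows (27.8%, against 37.4%). All of these were searched on both strands, and a match is a description of letters, not of a bound site. The windows shown are those of Psmc2, whose probe had the lowest p, of 3 genes with the antioxidant core (Psmb5, Psmb6 and Psmd12), of the inducible Psmb8 and of the interferon-inducible Psme1. Psmc2 had 2 matched windows, and the first by position of those with the most CCAAT matches is shown. Each runs 5′ to 3′ on the gene's strand. Capitals mark CCAAT in Psmc2 (starting 28 bases before the annotated start), the antioxidant core in Psmb5 (47 before), Psmb6 (9 before) and Psmd12 (247 before, read on the reverse strand), the gamma-activated core in Psmb8 (97 before) and the interferon core in Psme1 (9 after, reverse strand).
Psmc2, chr5:21785025-21785324, plus strand: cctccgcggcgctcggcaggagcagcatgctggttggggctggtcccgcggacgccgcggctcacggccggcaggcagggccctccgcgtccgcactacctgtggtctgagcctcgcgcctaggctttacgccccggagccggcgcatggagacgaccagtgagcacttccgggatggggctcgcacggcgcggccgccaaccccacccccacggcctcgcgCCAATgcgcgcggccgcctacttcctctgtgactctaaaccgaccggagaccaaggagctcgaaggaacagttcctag
Psmb5, chr14:54617946-54618245, minus strand: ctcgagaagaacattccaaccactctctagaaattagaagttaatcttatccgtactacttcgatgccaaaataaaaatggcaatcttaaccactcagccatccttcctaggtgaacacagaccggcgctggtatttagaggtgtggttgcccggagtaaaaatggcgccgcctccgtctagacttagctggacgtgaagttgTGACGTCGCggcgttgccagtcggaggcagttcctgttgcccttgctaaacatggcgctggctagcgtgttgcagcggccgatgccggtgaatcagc
Psmb6, chr11:70525107-70525406, plus strand: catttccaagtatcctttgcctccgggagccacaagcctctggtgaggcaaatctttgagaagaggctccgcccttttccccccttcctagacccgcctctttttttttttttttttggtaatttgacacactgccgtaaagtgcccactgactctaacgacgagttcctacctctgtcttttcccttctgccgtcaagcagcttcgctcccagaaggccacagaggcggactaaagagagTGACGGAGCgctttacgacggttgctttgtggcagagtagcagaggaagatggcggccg
Psmd12, chr11:107479278-107479577, plus strand: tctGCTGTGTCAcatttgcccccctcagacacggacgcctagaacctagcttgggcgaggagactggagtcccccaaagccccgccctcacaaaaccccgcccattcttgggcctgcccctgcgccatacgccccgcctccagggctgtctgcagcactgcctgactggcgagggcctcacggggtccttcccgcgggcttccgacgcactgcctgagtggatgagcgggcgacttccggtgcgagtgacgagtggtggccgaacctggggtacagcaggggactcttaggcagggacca
Psmb8, chr17:34197945-34198244, plus strand: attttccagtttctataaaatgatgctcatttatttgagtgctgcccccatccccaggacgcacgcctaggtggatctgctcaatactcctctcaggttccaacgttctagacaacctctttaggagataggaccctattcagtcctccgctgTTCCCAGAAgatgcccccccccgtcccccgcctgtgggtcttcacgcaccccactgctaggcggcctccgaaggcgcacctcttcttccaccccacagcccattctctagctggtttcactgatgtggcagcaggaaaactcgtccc
Psme1, chr14:55578244-55578543, plus strand: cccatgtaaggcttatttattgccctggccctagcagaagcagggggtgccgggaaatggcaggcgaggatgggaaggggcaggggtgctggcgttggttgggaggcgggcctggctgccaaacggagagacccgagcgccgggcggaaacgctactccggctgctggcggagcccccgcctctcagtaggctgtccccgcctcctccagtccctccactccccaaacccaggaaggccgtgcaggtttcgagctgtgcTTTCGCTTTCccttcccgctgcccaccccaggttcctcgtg

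Median signals over all probes on an array were 152 to 167 units, and 16396 to 17700 probes were detected per array. Most probes on an array were not detected, so these medians do not describe its bright probes. A bright Vim probe (ILMN_2451022) gave signals of 26429, 24452 and 20634 in untreated samples and 26015, 23465 and 24747 with Cr. The labelled fibroblast identity was checked against markers, and 8 of 10 fibroblast genes were among the tested genes, 7 of them detected on all 6 arrays, with Thy1 and Dcn not among them. Of the other marker genes, 2 of 6 for macrophages, 4 of 6 for skeletal muscle, 1 of 5 for adipocytes, 1 of 5 for endothelium and 3 of 5 for epithelium were tested, with 1, 0, 0, 0 and 2 of these on all 6 arrays. Of the proteasome probes, 67 of 70 were detected on all 6 arrays. The exceptions were Psma8, the testis form of an alpha subunit (5 arrays), Psmb8 (3 arrays) and Psmb9 (1 array).

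With Cr, proteasome transcripts as a group lay close to the untreated level. No probe of the 70 passed an adjusted p of 0.05 in limma, 0 higher and 0 lower, and 0.0295% of all tested probes did (0.00492% higher and 0.0246% lower). At an unadjusted p of 0.05 or less, 0 probes were higher and 2 lower with Cr (Psmc2 and Psmb6), where 5.04% of all tested probes reached that level (2.45% higher and 2.6% lower). Of the 70, 34 had a difference above 0 (48.6%, against 50.6% of all tested probes) and 36 below. The median difference was -0.00091, against 0.0014 over all tested probes, and the single values ran from -0.32 to 0.19. With median scaling in place of vsn 70% of members lay above 0, where the median of all tested probes was itself 0.048, and without Cr replicate 1 the count above 0 was 22. In bulk RNA of this kind, fewer cells of a type and less RNA per cell cannot be told apart. The interval of the difference was narrow for most members. For 67 of 70 probes (95.7%, against 98.9% of all) the 95% confidence interval lay within 0.5 of 0 on the log2 scale. For 56 probes it lay within 80 to 125% of the untreated level, and over all members the lowest bound was 68.7% and the highest 135.6%. With 3 arrays a group the number of arrays limits this precision. For probes near the detection limit, such as those of Psmb8 and Psma8, the scale departs from log2. Their intervals do not bound a fold.

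**Figure D1:**
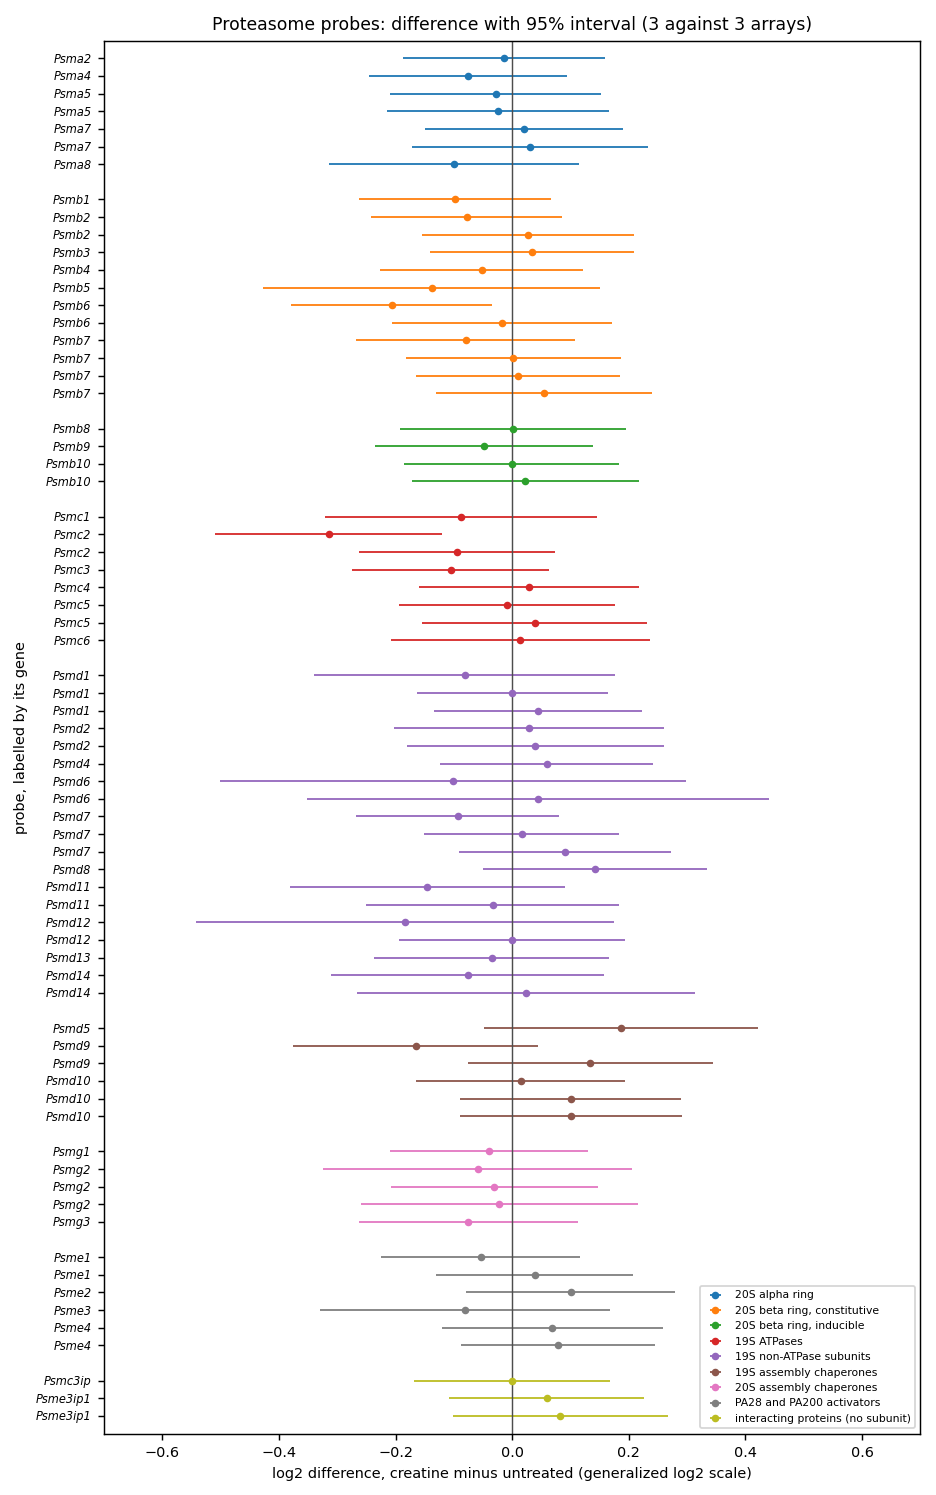
Difference of each proteasome probe between Cr and untreated arrays (log2 scale, x axis), grouped by role in the particle, with a point for the estimate, a colour for each role and a bar for the 95% confidence interval from limma. The estimates run from -0.32 for a Psmc2 probe to 0.19 for Psmd5, with 34 of 70 above 0.

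The normalized values of the groups did not overlap for 9 of 70 probes, 3 higher and 6 lower with Cr, where 10.7% of all tested probes were apart (5.59% higher and 5.15% lower). The lower 6 were Psmb1, 1 probe of Psmb2, 1 of Psmb6, both probes of Psmc2 and Psmc3, and the higher 3 were Psme2, 1 probe of Psme3ip1 and 1 of Psme4. Before normalization the signals of the groups overlapped for all 70, where 4.72% of all tested probes were apart. Those signals were not scaled between arrays.

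The 5 measured alpha ring genes, which form the gate of the barrel, had differences of -0.10 to 0.03 over 7 probes, 2 above 0 and 5 below. These were Psma2, Psma4, Psma5, Psma7 and Psma8. Psma7 (ILMN_2793488), the constitutive counterpart of Psma8, gave normalized values of 12.99, 13.06 and 13.02 in the untreated samples and 13.26, 12.92 and 12.98 with Cr. Cr replicate 1 was the highest of the 6, and the other Cr arrays lay below the untreated ones. The difference was 0.03 (SE 0.09, adjusted p = 0.996 from limma). Psma8 was near the detection limit, with signals of 172, 220.5 and 185 in the untreated samples against 170, 173 and 195 with Cr. The groups overlapped, with a difference of -0.10 (SE 0.10). With another normalization (neqc) it was -0.22 (SE 0.22).

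The 7 constitutive beta ring genes were measured by 12 probes, 5 above 0 and 7 below, with a median difference of -0.03. Psmb1, Psmb2, Psmb3 and Psmb4 were among them, and Psmb5, Psmb6 and Psmb7 carry the catalytic threonines. Psmb6 (ILMN_2895862), the subunit with caspase-like activity, gave normalized values of 13.44, 13.38 and 13.34 in the untreated samples and 13.17, 13.12 and 13.25 with Cr. Every Cr array lay below every untreated array, and the difference was -0.21 (SE 0.08, unadjusted p = 0.0216, adjusted p = 0.948 from limma). This is 86.6% of the untreated level, with an interval of 76.9 to 97.6%. Its other probe (ILMN_2777337) overlapped between groups, with a difference of -0.02 (SE 0.09). Psmb2 (ILMN_2949632), a beta subunit without proteolytic activity, had the narrowest interval of any member detected on all 6 arrays. It gave 12.93, 12.96 and 12.92 in untreated samples against 12.86, 12.88 and 12.85 with Cr, a difference of -0.08 (interval -0.24 to 0.09), and its other probe gave 0.03. Psmb7, the subunit with trypsin-like activity, had 4 probes with differences of -0.08, 0.0019, 0.01 and 0.05. For the last of these, ILMN_2836147, the signals were 4335, 4134 and 3317 in the untreated samples and 4384, 4195 and 3918 with Cr. The groups overlapped, in the signals and after normalization.

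**Figure D2:**
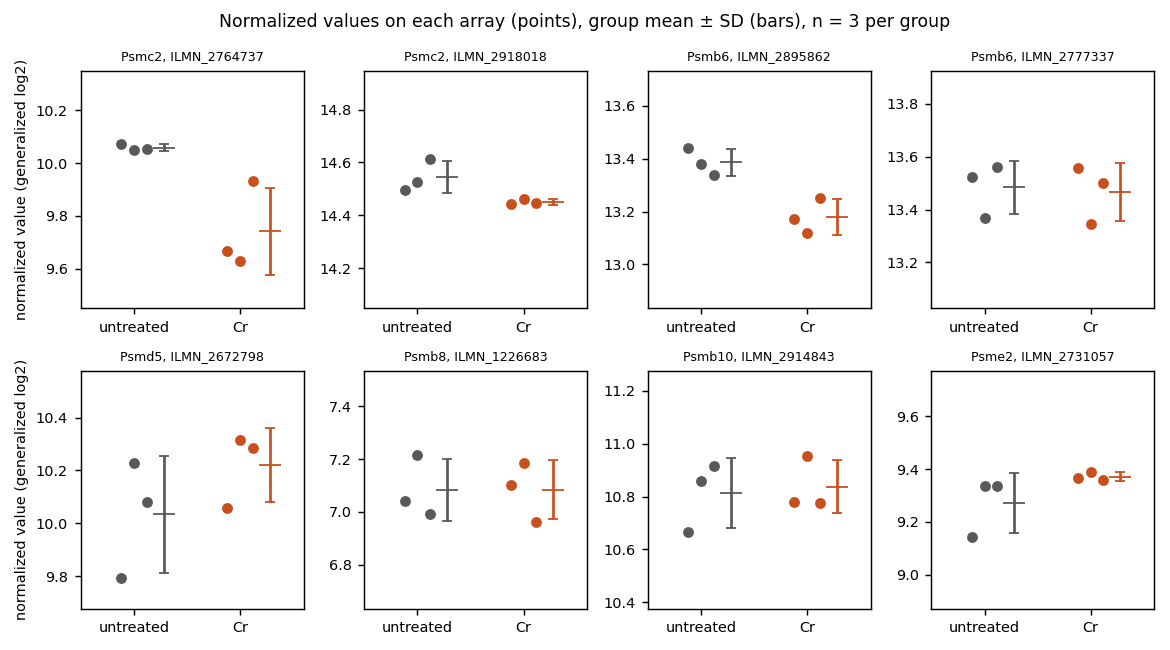
Normalized value (generalized log2 scale) of 8 proteasome probes on each of the 6 arrays (points, replicates 1 to 3 from left to right in a group), untreated in grey and Cr in orange, with bars for the group mean ± SD (n = 3) and a separate y axis in each panel. The Cr points of Psmc2 (ILMN_2764737) and Psmb6 (ILMN_2895862) lie below all untreated points, and those of the inducible Psmb8 and Psmb10 overlap with the untreated points.

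The inducible beta subunits, which replace the catalytic ones in the immunoproteasome, stood at 2 probes above 0 and 2 below. Psmb8 (the replacement of Psmb5) gave signals of 177, 201 and 165 in untreated samples and 174, 187 and 171 with Cr, and it was detected on 1 untreated and 2 Cr arrays. The groups overlapped, and the difference was 0.0015 (SE 0.09, interval -0.19 to 0.20, adjusted p = 0.9995 from limma). Its signals were near the detection limit, where the generalized log2 scale departs from log2, so this interval does not bound a fold. With another normalization (neqc) the difference was 0.03 (SE 0.18). Psmb9, the replacement of Psmb6, passed the detection filter by 1 array alone, untreated replicate 1, with a detection p of 0.0438. Its signals were 181, 172 and 153 in the untreated samples and 154, 164 and 160 with Cr. No fold is given for it, because no Cr array detected it. Psmb10, the replacement of Psmb7, was detected on all 6 arrays by both probes. ILMN_2914843 gave signals of 1855, 1948 and 1682 in untreated samples and 1762, 2069 and 1880 with Cr, with a difference of 0.02 (SE 0.09). ILMN_2757870 gave 1800, 1724 and 1591 in untreated samples and 1785, 1709 and 1737 with Cr, with a difference of -0.00095 (SE 0.09). The groups overlapped for both, and their intervals were -0.17 to 0.22 and -0.19 to 0.18.

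Among the 6 ATPases of the 19S base, which form the unfolding ring, 3 of 8 probes had differences above 0 and 5 below, with a median of -0.05. Psmc2 (ILMN_2764737) had the lowest p of all members. Its normalized values were 10.07, 10.05 and 10.05 in the untreated samples and 9.67, 9.63 and 9.93 with Cr, from signals of 1241, 1132 and 951 against 837, 851 and 1066. The 3 Cr arrays lay below the 3 untreated arrays after normalization, whereas in the signals Cr replicate 3 exceeded untreated replicate 3. The difference was -0.32 (SE 0.09, interval -0.51 to -0.12), a level of 80.4% of untreated (70.2 to 92.0%), with an unadjusted p of 0.00366 and an adjusted p of 0.665 from limma. The second Psmc2 probe (ILMN_2918018) also had no overlap between the groups, with 14.50, 14.52 and 14.61 in untreated samples and 14.44, 14.46 and 14.45 with Cr. Its difference was -0.09 (SE 0.08, adjusted p = 0.986), 93.6% of untreated (83.4 to 105.2%), and the intervals of the 2 probes overlap. Psmc3 gave 12.39, 12.33 and 12.44 against 12.26, 12.33 and 12.26, a difference of -0.11 (SE 0.08) with no overlap before rounding. Psmc5, the ATPase with the largest value above 0 in this ring, gave signals of 9211, 7613 and 6336 in untreated samples and 8349, 7285 and 8600 with Cr for ILMN_1251877. The groups overlapped, with a difference of 0.04 (SE 0.09). Psmc1, Psmc4 and Psmc6 had differences of -0.09, 0.03 and 0.01.

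The non-ATPase subunits of the 19S cap were the most numerous, with 10 genes and 19 probes, 11 above 0 and 8 below, and a median difference of 0.00048. They were Psmd1, Psmd2, Psmd4, Psmd6, Psmd7, Psmd8, Psmd11, Psmd12, Psmd13 and Psmd14. Psmd8, a lid subunit, had the lowest p above 0, with signals of 766, 675 and 516 in untreated samples and 654, 723 and 774 with Cr. The groups overlapped, and the difference was 0.14 (SE 0.09, adjusted p = 0.986 from limma). Psmd11, also a lid subunit, had the lowest p below 0, with signals of 812, 695 and 496 for ILMN_1214057 in untreated samples and 632, 542 and 638 with Cr. Its groups overlapped too, with a difference of -0.15 (SE 0.11), and its other probe gave -0.03. Psmd2 and Psmd4, a scaffold of the base and a ubiquitin receptor, had differences of 0.03 and 0.04 for the Psmd2 probes and 0.06 for Psmd4.

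For the 19S assembly chaperones Psmd5, Psmd9 and Psmd10, 5 of 6 probes had differences above 0, with a median of 0.10, 3 of these 5 being probes of Psmd10. For the 20S chaperones Psmg1, Psmg2 and Psmg3 all 5 probes were below 0, with a median of -0.04, and each of the 3 Psmg2 probes turned above 0 on leaving out an array. The difference between the chaperone sets was not tested. Neither set held a probe with an unadjusted p of 0.05 or less. Psmd5, which helps to build the ATPase ring, had the largest value above 0 of all members, from normalized values of 9.79, 10.23 and 10.08 in untreated samples and 10.06, 10.31 and 10.29 with Cr. The groups overlapped, with a difference of 0.19 (SE 0.11, adjusted p = 0.986 from limma). This is 113.8% of the untreated level (96.7 to 133.9%), and without untreated replicate 1 it was 0.06. The 2 probes of Psmd9 had opposite signs, 0.13 (SE 0.10) for ILMN_2593662 and -0.17 (SE 0.10) for ILMN_2594811. Signals of ILMN_2593662 were 497, 406 and 400 in untreated samples and 443, 440 and 545 with Cr, and those of ILMN_2594811 were 265, 303 and 245.5 against 265, 232 and 237. This was the largest gap between probes of 1 gene, and both sets of values overlapped between groups. Psmg3 gave signals of 1294, 1166 and 1128 against 1128, 1230 and 1127, a difference of -0.08 (SE 0.09).

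The activators that cap the core in place of the 19S particle had 4 of 6 probes above 0. Psme1 and Psme2, the interferon-inducible subunits of PA28, were detected on every array. Psme2 gave normalized values of 9.14, 9.34 and 9.34 in untreated samples and 9.37, 9.39 and 9.36 with Cr, so that the groups did not overlap. Untreated replicate 1 was the lowest of the 6, and the other untreated arrays lay just below the Cr arrays. The difference was 0.10 (SE 0.08, adjusted p = 0.986 from limma), and without untreated replicate 1 it was 0.03. The Psme1 probes had opposite signs, -0.05 (SE 0.08) for ILMN_2671204 and 0.04 (SE 0.08) for ILMN_2986309. Signals of ILMN_2671204 were 1157, 1184 and 957 in untreated samples and 1023, 1092 and 1120 with Cr, and those of ILMN_2986309 were 2374, 2128 and 1896 against 2089, 2336 and 2286, with overlap for both. Psme3, which encodes the nuclear form PA28 gamma, gave signals of 4732, 3053 and 2885 against 3489, 3053 and 3582. It overlapped between groups, with a difference of -0.08 (SE 0.12). Psme4, the single-chain activator PA200, had differences of 0.07 and 0.08 on its probes. The proteins that bind subunits differed by -0.00087 (Psmc3ip) and by 0.06 and 0.08 (Psme3ip1).

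The members also differed among themselves in their spread between arrays of a group. The standard deviation within groups exceeded 0.2 on the log2 scale for 8 of 70 probes (11.4%, against 5.21% of all tested probes), and the median was 0.102, against 0.104 over all. These 8 probes, chosen after their values were seen, belong to Psmd6 (2 probes), Psmd12, Psmd1, Psmd14, Psmb5, Psmg2 and Psme3. All 8 were highest on untreated replicate 1 and lowest on an array of replicate 2, of either group. Of the 1058 tested probes with a standard deviation above 0.2, 44.8% had that pattern, as had 12.7% of all tested probes and 7 of the other 62 members (11.3%). Psmd6 (ILMN_1241910), a lid subunit, had the widest interval of the members, -0.50 to 0.30. Its normalized values were 9.88, 8.98 and 9.34 in untreated samples and 9.42, 8.91 and 9.56 with Cr, a difference of -0.10 (SE 0.19) that was 0.13 without untreated replicate 1. The second Psmd6 probe gave 8.63, 7.74 and 7.92 against 8.26, 7.79 and 8.36. It too was highest on untreated replicate 1, but lowest on untreated replicate 2, where the first probe was lowest on Cr replicate 2. Psmb5, the subunit with chymotrypsin-like activity, gave 10.66, 10.09 and 10.32 against 10.45, 10.00 and 10.21, with a difference of -0.14 (SE 0.14). Psmd12 (ILMN_1216211) gave 10.67, 9.98 and 10.24 against 10.28, 9.71 and 10.35. Its other probe (ILMN_2896805) gave 12.64, 12.37 and 12.66 against 12.57, 12.54 and 12.56 and did not show the order. Psmb5 and Psmd12 hold the antioxidant core in the windows printed above, as does Psmb6, whose standard deviation within groups was 0.06 and 0.11 on its probes. The other genes with that core had standard deviations of 0.17 (Psmc6), 0.15 and 0.15 (Psmd9), and 0.11 and 0.04 (Psme4). The windows of Psmd6, Psmd1, Psmd14 and Psme3 did not hold it, and Psmg2 had no matched window. A relation between the core and the spread was not tested.

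The first principal component over the members held 58.9% of their variance, against 37.4% over all tested probes. Probes were not scaled to equal variance, so the probes of large spread described above weigh most in it. How far the other members share this component was not tested. Its scores for the members were 1.32, -0.82 and -0.04 in untreated samples and 0.40, -1.10 and 0.23 with Cr, and those over all probes were 18.9, -8.67 and -2.45 against 2.64, -10.9 and 0.47. In both, untreated replicate 1 was highest and Cr replicate 2 lowest, with untreated replicate 2 next to it, and the groups overlapped. When limma estimated array weights, untreated replicate 1 received the lowest, 0.498. The median deviation of the members from their own means lay between -0.03 and 0.03 on each array, and 27 to 46 of the 70 probes were above their mean on an array. What sets this order of arrays was not tested.

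**Figure D3:**
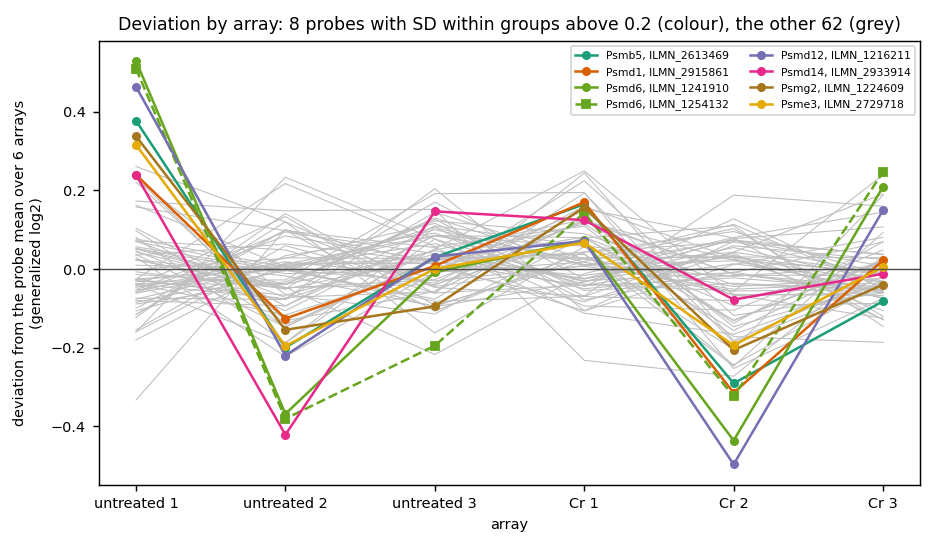
Deviation of each proteasome probe from its mean over the 6 arrays (log2 scale, y axis), by array (x axis), with a line for each probe, coloured for the 8 probes of largest spread within groups and grey for the other 62. These 8 are highest on untreated replicate 1 and lowest on a replicate 2 array, untreated or Cr.

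Of the 43 genes, 21 had several probes (48 in all) and 22 had 1. The probes of 10 genes had a single sign and those of 11 had both, and the confidence intervals of all 21 overlapped between probes. The gap between the highest and lowest difference of a gene was 0.10 at the median, with a range of 0.0038 (Psma5) to 0.30 (Psmd9). Psmd7, a lid subunit, had -0.09, 0.09 and 0.02 on its 3 probes, and Psmg2 had -0.06, -0.03 and -0.02. Psmd10, the chaperone also called gankyrin, had 0.01, 0.10 and 0.10.

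**Figure D4:**
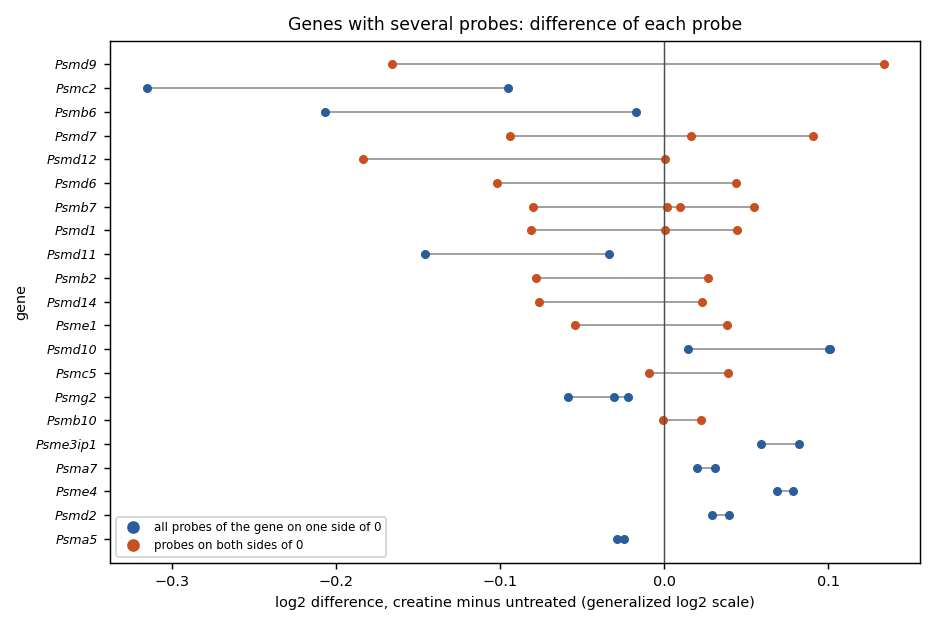
Difference between Cr and untreated (log2 scale, x axis) for each probe (point) of the 21 genes with several probes, with a line joining the probes of a gene. Probes of 11 genes lie on both sides of 0 (orange) and those of 10 on one side (blue), and the widest line, 0.30 long, is that of Psmd9.

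Genes that work with the proteasome were counted in the same fit, from lists of other subunits and cofactors, of the p97 unfoldase, of control by Nrf1 and of antigen presentation. None of them held a probe at an adjusted p of 0.05 or less. Of 19 other subunits, shuttles and cofactors 10 were measured (21 probes), 11 probes above 0 and 10 below, and the lowest p in each direction belonged to genes whose probes had both signs. Ecpas, which tethers core and cap, had 0.20 (SE 0.13) on 1 probe and -0.10 on the other, and the deubiquitinase Uchl5 had -0.22 (SE 0.12), -0.14, 0.03 and 0.10 on its 4 probes. Of 8 p97 genes 7 were measured (9 probes), 3 above 0 and 6 below, with the probes of Faf1 at 0.12, 0.02 and -0.04 and Ubxn2a at -0.10. For control by Nrf1 5 of 7 genes were measured (7 probes), 1 above 0 and 6 below. The list also includes Nfe2l2, which encodes Nrf2 and not Nrf1, at -0.10 (SE 0.10). At an unadjusted p of 0.05 or less in limma 2 of these 7 probes were lower, where 2.6% of all tested probes were. Nfe2l1, which encodes Nrf1, gave signals of 2806, 2731 and 2204 in untreated samples and 2409, 2581 and 2925 with Cr, with a difference of -0.0012 (SE 0.08). The groups of Nfe2l1 overlapped. The 2 lower probes were that of Mafk and 1 of Maff (-0.28, SE 0.12, groups overlapping), which encode small Maf proteins that bind DNA together with Nrf1. The other Maff probe was at -0.12 (SE 0.09). Mafk had the lowest p of that list below 0, with a difference of -0.19 (SE 0.08, adjusted p = 0.948 from limma). Its probe was near the detection limit and was detected on 5 arrays. Its signals were 209, 197 and 190 in untreated samples and 167, 173 and 187 with Cr. The probes of Mafg were at 0.05 and -0.02. The 10 proteasome probes whose windows held the antioxidant core had a median difference of -0.0084, and the 42 probes of genes with other matched windows one of -0.00024. Of 11 antigen presentation genes 7 were measured (15 probes), 10 above 0 and 5 below. At an unadjusted p of 0.05 or less in limma 3 of these 15 probes were higher, where 2.45% of all tested probes were. These 3 were probes of Irf1, the transcription factor that acts on interferon-inducible promoters, whose lowest-p probe had a difference of 0.38 (SE 0.09, adjusted p = 0.278 from limma) and whose other probes had 0.28, 0.25 and 0.16. Beside it, H2-D1, a class I heavy chain, had -0.20 (SE 0.10) and -0.07 on its probes. Both H2-D1 probes were near the detection limit, with signals of 164 to 211 and 172 to 193, and were detected on 4 and 5 arrays. The proteasome members with a difference given that are known to respond to interferon, Psmb8, Psmb10, Psme1 and Psme2, had differences between -0.05 and 0.10. Among them Psmb8 was near the detection limit.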

How the data were processed

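The deposited signal table gives each of 45281 probes an intensity per array, with no background subtracted by the authors, and a detection p-value, which the authors obtained from negative control probes. Normalized values on a log2 scale were deposited too, which the authors made with background correction and vsn. Here the vsn package was not used, and its model was rewritten in R 4.3.3 and applied to the intensities. Probes that reached a detection p of 0.05 on any array, 20308 in all, entered a two-sided limma 3.58.1 fit (lmFit, eBayes) without covariates. P-values were adjusted over all of them by Benjamini-Hochberg, and intervals are 95% intervals of that fit. Probe symbols came from the platform annotation, and a RefSeq table of GRCm38.p6 changed 0 of them. A probe that the annotation leaves unnamed could not be chosen. No build is named for the array. The code of the fit was checked on simulated arrays with independent noise for each probe. They lack the order that the real arrays share, so this check does not bound the changes that could be missed here.

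Values by array are given for the lowest-p probe in each direction of each role, for all probes of Psmb8, Psmb9, Psmb10, Psme1 and Psme2, for the 3 lowest p in each direction and for the widest and narrowest interval. Other values by array were chosen after they were seen. The members, roles and lists were chosen with earlier results of these data known. Alternatives were other normalizations (neqc, the deposited values, quantile, median scaling), filters, variance models, array weights, a replicate block, 1 probe per gene and each array left out. Plots were made in matplotlib 3.10.9 (Python 3.11.15).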

Additional observations from a re-analysis of the deposited data

How the results depend on the processing

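No proteasome probe was called in either direction under any of the 17 alternatives run, including an adjusted p threshold of 0.1. Over all tested probes only 0 (neqc, for example) to 15 (array weights) were called under them. The lowest adjusted p of a member was 0.358 to 0.9996 across them. With normexp and median scaling the median difference was 0.066 and 70% of members lay above 0, where the median of all tested probes was 0.048. With 1 probe per gene, 21 of 43 genes lay above 0. Leaving out each array in turn gave 22 to 40 probes above 0 and medians of -0.038 to 0.014. The lowest of both came without Cr replicate 1. The difference of Psmc2 (ILMN_2764737) was -0.41 to -0.26 on leaving out an array. Among the 22 probes chosen by the naming rule, the sign turned for Psmb8 with the deposited values (-0.00095) and array weights (-0.0011), for Psme1 (ILMN_2671204, 0.0100) and Psmb10 (ILMN_2757870, 0.067) with median scaling, and for Psmd6 (0.014) and Psmb10 (ILMN_2914843, -0.028) with array weights. On leaving out arrays the sign turned for 40 of the 70 probes. Among the probes given by array these were Psmb8 (-0.050 to 0.069), Psmd6 (-0.31 to 0.13), Psme3 (-0.20 to 0.055), Psmb10 (ILMN_2914843, -0.052 to 0.074, and ILMN_2757870, -0.046 to 0.060), Psmc5 (-0.015 to 0.12), Psma7 (-0.074 to 0.097), Psmb7 (ILMN_2836147, -0.011 to 0.12), Psmb5 (-0.27 to 0.014), Psmd12 (-0.34 to 0.019 and -0.093 to 0.054) and the second Psmd6 probe (-0.13 to 0.29). The cause was not tested. No member had passed the test.

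The samples of the groups share replicate numbers, and deviations of same-numbered samples correlated at 0.24, 0.31 and -0.03. Samples with different numbers were not correlated for comparison, so these values cannot decide whether the numbers pair the samples. The samples were left unpaired in the fit used above. With the replicate number as a block, 14 probes were called over the array in place of 6, none of them a member. At the unadjusted p threshold used above, 1430 of all tested probes passed with the block, in place of 1024. Of the members, 1 was higher and 2 lower at that threshold, in place of 0 and 2. The count of members called was 0 in both directions, and the median difference was -0.00091.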
